A study of Caenorhabditis elegans with 2 samples.

Results

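The 129 small nuclear RNA (snRNA) genes of the nuclear chromosomes of Caenorhabditis elegans are described here by the binding peaks of 1 tagged protein, Y22D7AL.16. They are all nuclear genes of biotype snRNA in the Ensembl annotation of the WBcel235 assembly, which is the ce11 sequence, out of 46890 nuclear genes annotated. A gene was counted as having a peak when the summit, the highest point of the peak, lay within 200 bp of the gene.

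The peaks come from ChIP-seq with an antibody against GFP in strain OP615. Its animals carry 2 changes, the mutation unc-119(tm4063) III and the transgene wgIs615, which expresses Y22D7AL.16 with GFP-FLAG at the C terminus. RefSeq names the product of Y22D7AL.16 only as a protein with a C2H2-type zinc finger domain. Whole late embryos of both sexes were taken 4.5 h after egg bleaching, in 2 biological replicates of 1 group, so no condition was compared with another. The transgene was a single line, and neither embryos without the tag nor the control library were analysed here. Peaks in whole embryos do not show which cells held the protein.

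Most snRNAs are the RNA parts of the spliceosome, the machine that removes introns from messenger RNA. U1 snRNA pairs with the 5′ splice site and U2 with the branch point, while U4, U5 and U6 join as a tri-snRNP in which U6 later takes over the 5′ splice site. Nematodes also make spliced leader RNAs, which donate a short leader to the 5′ ends of other messages: SL1 mostly to single genes or the first gene of an operon, and SL2 mostly to the later genes of operons. SmY RNAs are small nematode RNAs linked to this trans-splicing. In animals most snRNA genes are transcribed by RNA polymerase II and the U6 genes by RNA polymerase III, the enzyme of the tRNA genes, from promoters that lie upstream of the RNA.

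The gene names mark 12 genes as SL1 (sls-1), 18 as SL2 (sls-2) and 10 as SmY (smy). The annotation gives no U number to the rest, so these were grouped by letters in the gene that are hallmarks of each RNA, and a group name says no more than that the letters are there. ACAGAGA, the box of U6 that pairs with the 5′ splice site, was in 22 genes, called U6-box genes. ACTTACCTG of the U1 5′ end was in 12 genes, GTAGTATC of the U2 branch point region in 19, GCTTTGCGC of the U4 5′ end in 5 and GCCTTTTAC of the U5 loop in 11. The other 20 genes held none of these.

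A few sequences show the genes on which the results turn, all from the RefSeq genome sequence in the ce11 build and written 5′ to 3′ along the gene's strand. The first is a whole SL2 gene, with its spliced leader in capitals.
sls-2.1 (gene, chrII:5844865-5844974, plus strand): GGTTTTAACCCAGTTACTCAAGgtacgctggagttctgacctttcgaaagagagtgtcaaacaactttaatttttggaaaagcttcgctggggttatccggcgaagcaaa

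The next set are the 90 bases before the 4 U6-box genes with a thresholded peak, followed by those before K09B11.12, a U6-box gene with no peak. K09B11.12 was picked after its values were seen. Compared base by base without gaps, its 90 bases matched those of C28A5.7 at 12, the lowest count among U6-box genes, shared with K09B11.13. TATATA begins at -30 before K09B11.12 and at -31 before C28A5.7, so letters they share out of register were not counted. Y17G9A.90, also without a peak, matched C28A5.7 at 45 bases, and W05B2.8 matched it at 44. TATATA and GTCTGC are in capitals.
W05B2.8 (upstream, chrIII:10989589-10989678, plus strand): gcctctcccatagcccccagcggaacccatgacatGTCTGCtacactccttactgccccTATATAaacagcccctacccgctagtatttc
C28A5.7 (upstream, chrIII:4426956-4427045, minus strand): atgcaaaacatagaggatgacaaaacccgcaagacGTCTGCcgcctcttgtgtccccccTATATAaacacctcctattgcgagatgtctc
F54D8.7 (upstream, chrIII:5080899-5080988, minus strand): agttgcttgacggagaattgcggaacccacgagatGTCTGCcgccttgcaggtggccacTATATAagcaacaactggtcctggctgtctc
R07E5.16 (upstream, chrIII:4414095-4414184, plus strand): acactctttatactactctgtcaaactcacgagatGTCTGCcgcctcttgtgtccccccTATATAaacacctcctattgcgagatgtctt
K09B11.12 (upstream, chrIV:13439007-13439096, plus strand): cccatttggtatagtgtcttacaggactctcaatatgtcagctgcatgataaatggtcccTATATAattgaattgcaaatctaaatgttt

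The last set are the 190 bases before 3 SL2 genes with the same leader, of which sls-2.2 and sls-2.1 had a thresholded peak and sls-2.3 did not. Capitals mark a run that they share and TCGAAC, the reverse complement of GTTCGA, which is the core of the B box inside tRNA genes.
sls-2.2 (upstream, chrII:5543408-5543597, plus strand): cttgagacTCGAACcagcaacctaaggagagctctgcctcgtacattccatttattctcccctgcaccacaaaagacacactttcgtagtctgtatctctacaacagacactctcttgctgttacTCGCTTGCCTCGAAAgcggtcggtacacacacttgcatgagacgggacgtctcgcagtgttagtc
sls-2.1 (upstream, chrII:5844675-5844864, plus strand): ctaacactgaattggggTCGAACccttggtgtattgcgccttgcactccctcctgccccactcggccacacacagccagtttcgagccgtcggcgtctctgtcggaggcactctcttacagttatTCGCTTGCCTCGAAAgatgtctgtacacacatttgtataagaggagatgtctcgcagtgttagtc
sls-2.3 (upstream, chrII:5544274-5544463, minus strand): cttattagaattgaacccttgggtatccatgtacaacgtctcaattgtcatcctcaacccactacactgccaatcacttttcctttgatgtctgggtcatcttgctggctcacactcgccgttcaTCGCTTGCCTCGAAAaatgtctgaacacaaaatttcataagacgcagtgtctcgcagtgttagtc

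Peaks that passed the authors' reproducibility threshold, called thresholded peaks, lay at 7 of the 129 snRNA genes (5.43%, exact 95% interval 2.21 to 10.9). The same count over all annotated genes was 1.61%, over 346 snoRNA genes 14.5% and over 612 tRNA genes 28.4%. By the distance to the 5′ end alone the 7 snRNA genes were the same, against 1.12% of all annotated genes and 0.561% of protein-coding genes. The share of snRNA genes was therefore above that of all genes, with an interval that starts above it, and below those of tRNA and snoRNA genes. These intervals cover counting error over genes only.

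The 7 genes belonged to the SL2 and U6-box groups. They were 3 of the 18 SL2 genes (16.7%, exact interval 3.58 to 41.4) and 4 of the 22 U6-box genes (18.2%, 5.19 to 40.3). None of the 12 SL1, 10 SmY, 12 U1-letter, 19 U2-letter, 5 U4-letter and 11 U5-letter genes had one, and none of the other 20 did. With groups this small the intervals are wide: for the U2-letter genes 0 of 19 allows up to 17.6%, and for the U4-letter genes 0 of 5 allows up to 52.2%.

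Signal is the authors' value for a peak. It can be read only against other peaks of its list, where rank 1 is the highest signal of a list. The pooled list, called on the 2 replicates together, held 28882 peaks. Its top 469 by signal were the thresholded peaks, with a lowest signal of 82.9 and a median of 115. Each replicate list held 30000 peaks and includes background. Depth is unknown, because the sources used here give no read numbers.

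W05B2.8, a U6-box gene at chrIII:10989679-10989780 on the plus strand, had the highest signal of any snRNA gene. It read 234 in the pooled list (rank 55), 143 in replicate 1 (rank 46) and 91.8 in replicate 2 (rank 66). The gene lies in an intron of dhc-4 on the same strand, and dhc-4 has its name from dynein heavy chain. Its summits were 123 bp from the 5′ end in the pooled list and in replicate 1 and 125 bp in replicate 2, so both replicates put the peak just past the 3′ end of the snRNA.

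The 3 SL2 genes followed. sls-2.4, on chromosome I outside coding genes, read 177 in the pooled list (rank 99), 98.7 in replicate 1 (rank 108) and 79.4 in replicate 2 (rank 95). sls-2.2, at chrII:5543598-5543707 on the plus strand, read 129 (rank 193), 70.6 (rank 220) and 63.1 (rank 153) in the same order. sls-2.1, at chrII:5844865-5844974 on the plus strand, read 128 (rank 197), 63.0 (rank 272) and 66.7 (rank 129). All 3 ranked within the first 469 peaks of both replicates, and all 3 lie outside protein-coding genes.

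The other 3 U6-box genes had lower pooled signals than the SL2 genes. C28A5.7, at chrIII:4426854-4426955 on the minus strand in an intron of C28A5.6, read 102 in the pooled list (rank 305), 68.1 in replicate 1 (rank 235) and 32.4 in replicate 2 (rank 1080). F54D8.7, at chrIII:5080798-5080898 on the minus strand and outside coding genes, read 96.9 (rank 336), 57.2 (rank 335) and 37.2 (rank 589). R07E5.16, at chrIII:4414185-4414286 on the plus strand in an intron of mpc-1, a mitochondrial pyruvate carrier gene, read 93.1 (rank 373), 49.01 (rank 528) and 40.1 (rank 455). Each of these 3 missed the first 469 peaks of 1 replicate.

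Among the first 469 peaks of each replicate, 7 snRNA genes had a summit in replicate 1, 5 in replicate 2 and 4 in both, where 1.55%, 1.59% and 1.13% of all annotated genes did. The 4 were W05B2.8, sls-2.4, sls-2.2 and sls-2.1. Replicate 1 also had C28A5.7, F54D8.7 and sls-2.9. sls-2.9, chosen for mention after its values were seen, read 57.4 there (rank 332) and 14.9 in replicate 2 (rank 21804) and had no pooled summit within 200 bp. A thresholded summit of signal 107 (rank 269) lay 201 bp from sls-2.9, just outside the distance used, and that summit was inside a tRNA gene. No tRNA, snoRNA or rRNA gene lay within 400 bp of any of the 7 genes with a thresholded peak.

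**Figure D1:**
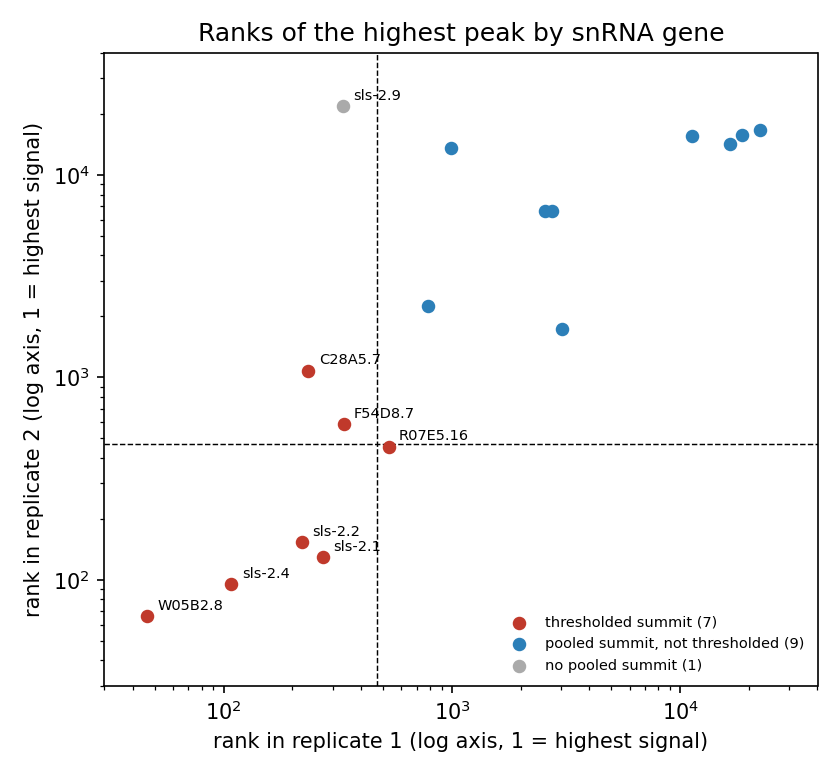
Rank of the highest peak within 200 bp of each snRNA gene in replicate 1 (x axis) and replicate 2 (y axis), both log axes, for the 17 genes with a summit in both lists, coloured by their peak in the pooled and thresholded lists; dashed lines mark rank 469. W05B2.8, sls-2.4, sls-2.2 and sls-2.1 lie below both lines, C28A5.7, F54D8.7 and R07E5.16 near where the lines cross, and the 9 genes with a pooled summit that was not thresholded lie beyond both.

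A gap in pooled rank lay between these genes and the rest. The lowest of the 7, R07E5.16, had rank 373, and no snRNA gene had its highest pooled peak at ranks 470 to 938. The share of all annotated genes at those ranks was not counted, so the gap lacks a background. The next were sup-6, a U1-letter gene known from suppressor mutations that change splice site choice, with a pooled signal of 65.6 (rank 1039), and C52E4.8, a U4-letter gene, with 63.1 (rank 1252). In replicate 1 they read 43.6 (rank 785) and 33.1 (rank 3041), and in replicate 2 27.3 (rank 2259) and 28.9 (rank 1725). Both were thus outside the first 469 peaks of either replicate. Their pooled summits lay inside the gene, 31 bp and 12 bp from the 5′ end. The replicate summits lay at 1 bp and -32 bp for sup-6 and at -6 bp and -20 bp for C52E4.8, where negative values are upstream of the gene.

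A summit of the pooled list lay at 37 of the 129 genes (28.7%, exact interval 21.1 to 37.3), against 31.7% of all annotated genes, which is near that background. By the 5′ end alone it was 36 genes (27.9%), against 12.9% of all annotated genes and 14.6% of protein-coding genes. snRNA genes are short, so the first of these counts gives longer genes more room for a summit. The pooled list holds background by construction, and of these 37 genes 16 had a summit in both replicate lists, 11 in replicate 1 alone, 9 in replicate 2 alone and 1 in neither. In no list was there a summit at 83 of the 129 genes. Neither this count nor the split by replicate was made over all annotated genes, so both lack a background.

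By group, 9 SL2, 3 SmY, 7 U1-letter, 4 U2-letter, 2 U4-letter, 3 U5-letter, 7 U6-box and 2 other genes had a pooled summit, and no SL1 gene had one. The 2 other genes, mir-1831 and T27E4.22, overlap the U1-letter genes sup-39 and T27E4.12 and share their summits, so those peaks were counted for both genes. The share was highest among U1-letter genes, at 58.3% (exact interval 27.7 to 84.8), with an interval that includes the 31.7% of all genes. All 7 of their highest pooled summits also lay within 200 bp of the 5′ end. By that distance the share was 12.9% of all annotated genes and 14.6% of protein-coding genes. The group was picked because its share was the highest, so its interval cannot be set against these shares. Of its 7 genes, only H27M09.6 and sup-6 had a summit in both replicate lists. The thresholded list was set by pooled signal, so its genes read higher by construction. Within the SL2 group the 3 thresholded genes read 128 to 177, while the 6 with only a pooled summit read 27.8 to 38.2. Among U6-box genes the 4 thresholded read 93.1 to 234 and the 3 others 37.1 to 44.1.

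**Figure D2:**
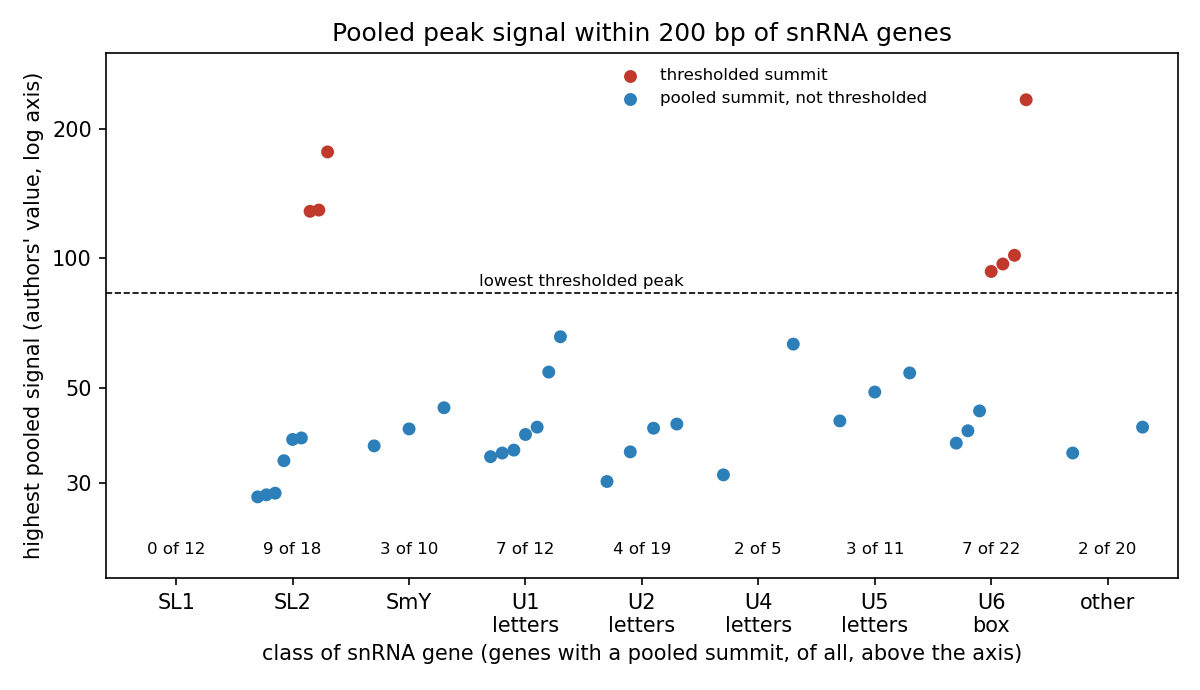
Highest pooled signal within 200 bp of each snRNA gene (y axis, the authors' value, log axis) by group of snRNA gene, 1 point per gene, with the number of genes that had a pooled summit written above the axis; the dashed line is the lowest signal of a thresholded peak, 82.9. The points above the line are 3 SL2 genes and 4 U6-box genes, and every other group ends at or below 65.6.

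The remaining genes of highest pooled signal were spread over the groups. H27M09.6, a U1-letter gene, read 54.3 in the pooled list (rank 2510), 33.8 in replicate 1 and 21.6 in replicate 2. Among U5-letter genes, F32B5.9 in an intron of cpz-1 read 54.1 (rank 2555) and had no summit in replicate 2, F38E11.10 read 48.8 (rank 4158), and F07C6.5 in an intron of pin-2 read 41.8 (rank 8141). None of these 4 genes came near the thresholded signals.

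Of the SmY genes, smy-6 was highest with 44.9 (rank 6089), from a summit 112 bp before the gene that had no counterpart in replicate 1. The U6-box gene Y17G9A.85 read 44.1 (rank 6520), and both of its replicate ranks were past 10000 (11257 and 15588). The U2-letter genes W07G1.9 and F08G2.9 read 41.1 (rank 8699) and 40.2 (rank 9452), and both summits lay upstream of the gene, by 165 bp and 136 bp. sup-39, a U1-letter gene known from the same kind of suppressor mutations as sup-6, read 40.4 (rank 9250). The entry mir-1831, which carries the snRNA biotype, lies inside sup-39 and shares its peak. T11F9.15, the second U4-letter gene with a pooled summit, read 31.3 (rank 20597).

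The summits did not keep to 1 place along the genes. Over the 7 thresholded genes the median position was 34 bp from the 5′ end, with 2 summits inside the gene, 2 upstream and 3 downstream. The medians were 16 bp for 174 tRNA genes, with 115 summits inside the gene, and -45.5 bp for 50 snoRNA genes, with 44 upstream. All 8 thresholded peaks at snRNA genes were 380 bp wide, wider than the genes themselves.

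Replicates placed the summits close together at 5 of the 7 genes, within 60 bp. They were 1 bp apart at sls-2.2, 2 bp at W05B2.8, 20 bp at F54D8.7 and at R07E5.16, and 54 bp at sls-2.1. At sls-2.4 they were 113 bp apart and at C28A5.7 139 bp. sls-2.2 was the 1 gene with a second thresholded summit, of signal 91.3 (rank 383), 233 bp from its 5′ end. That summit lies between sls-2.2 and sls-2.3, which point towards each other, 124 bp from the first and 333 bp from the second.

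**Figure D3:**
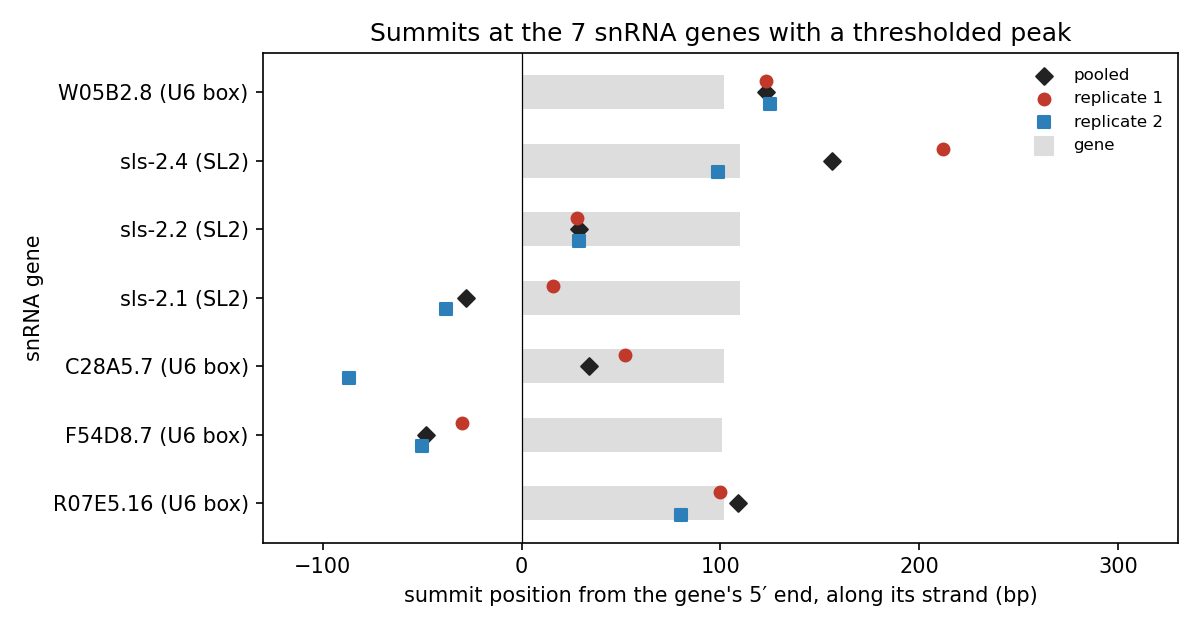
Position of the highest summit from the 5′ end (x axis, bp along the gene's strand) in the pooled, replicate 1 and replicate 2 lists at the 7 snRNA genes with a thresholded peak (y axis, by pooled signal); grey bars are the genes. The 3 lists coincide at W05B2.8 and sls-2.2 and spread most at sls-2.4 and C28A5.7, whose replicate summits were 113 bp and 139 bp apart.

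Within the SL2 group the genes with a thresholded peak had the same leader. The leader of sls-2.1, printed above in capitals, stood at the start of 4 of the 18 genes, and 3 of these 4 had a thresholded peak, while 0 of the 14 others did. The fourth, sls-2.3, had no summit within 200 bp in any list. The 4 genes also shared the run of 15 bases in capitals in the printed sequences, at 65 bp before the 5′ end. Searched on both strands, it was in the 250 bases before 4 of 46890 genes (0.00853%), the same 4. The run was found by comparing these genes, so it is a description of them and does not separate sls-2.3 from the other 3.

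Among U6-box genes, identical RNAs differed in their peaks. The sequence of W05B2.8 is found in 14 genes of exactly the same letters, C28A5.7 and R07E5.16 included. Of the 14 copies 3 had a thresholded peak, 2 had only a pooled one and 9 had no pooled summit. The 2 were K09C6.12 with 39.7 (rank 9953) and Y9C9A.111 with 37.1 (rank 12474), named after their values were seen. By chromosome, 4 of the 7 U6-box genes on III had a thresholded peak and 0 of the 15 elsewhere did. The shares of all annotated genes on III and elsewhere were not counted, so this split lacks a background.

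The upstream sequences of the U6-box genes have a common layout. TATATA lay in the 250 bases before 17 of 22 (77.3%), on either strand, against 10.9% of all annotated genes, and in 16 of them it began at -31 or -30 from the 5′ end on the gene's strand. All 4 genes with a thresholded peak held it, and so did 13 of the 18 others. TATAAA, whose first letters are shared with TATATA and can overlap it, was before 10 of 22 (45.5%) against 34.1% of all genes.

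GTCTGC was noticed in the 4 upstream sequences printed above, beginning at -55 in each. Of the 18 other U6-box genes only K09C6.12 held it within 250 bases on either strand, also at -55. Over all genes the share was 5.04%. Outside the U6-box group M163.13, a gene with none of the class letters, held GTCTGC at -54 and TATATA at -30. It had no summit in any list. K09C6.12 matched C28A5.7 at 77 of the 90 bases before the gene (85.6%), and its gene sequence is identical, yet it had 39.7 in the pooled list where C28A5.7 had 102. In replicate 1 the 2 genes read 20.6 and 68.1 and in replicate 2 16.8 and 32.4. On either strand within 250 bases GTCTGC was also before 10 of 19 U2-letter genes, none of which had a thresholded peak. By the same search it was before 6 of 18 SL2 genes, all 6 among the 15 without a thresholded peak. It was also before 10 of 12 SL1 genes, where few 50-base words are found once in the genome. None of these U2-letter and SL2 genes held it on the gene's strand within 100 bases, while the 10 SL1 genes held it there at -45.

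GTTCGA, the core letters of the tRNA B box, lay on either strand in the 250 bases before 5 of the 7 genes with a thresholded peak (71.4%). It was before 11 of the 122 other snRNA genes (9.02%), 7.84% of all annotated genes, 14.5% of snoRNA genes and 15.4% of tRNA genes. The 5 were sls-2.4, sls-2.2, sls-2.1, C28A5.7 and F54D8.7, where it began 166, 182, 173, 163 and 111 bases before the gene. In the first 4 it was on the opposite strand, as in the capitals of the SL2 sequences above. W05B2.8 had it just outside the window, 256 bases before the gene, and sls-2.3 had none within 300 bases. Among the 5 thresholded genes, the letters were 63 bp from the pooled summit at F54D8.7 and 145 to 322 bp at the other 4. The peak width of 380 bp, and replicate summits 139 bp apart at C28A5.7, limit what these distances show. Binding at the letters was not tested. These counts are a description of the letters in these windows, over 7 genes.

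Other letters recurred before some of the U1-, U2-, U4- and U5-letter and U6-box genes, 69 in all. The 6 letters before the largest number of them on the gene's strand were AATTTT, in 32, and on either strand they were before 40 (58.0%), below the 76.7% of all genes. TGTCGG was the next, and on either strand it was before 15 of 19 U2-letter, 7 of 12 U1-letter, 3 of 5 U4-letter, 3 of 11 U5-letter, 2 of 22 U6-box and 12 of 18 SL2 genes, against 5.47% of all genes. It was before 2 of the 7 genes with a thresholded peak (28.6%) and 42 of the 122 others (34.4%). The runs of 8 letters before the largest number of them were GCGGAACC and CGGAACCC, which overlap, each before 20. On either strand GCGGAACC was also before 20 (29.0%), against 0.35% of all genes. These were 7 of 12 U1-letter, 0 of 19 U2-letter, 2 of 5 U4-letter, 6 of 11 U5-letter and 5 of 22 U6-box genes. GCGGAACC was also before 5 of 10 SmY and 4 of 18 SL2 genes. All these letters were picked as the most shared in the windows of the 69 genes, so their counts there are a description only.

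How far peaks can be called at repeated genes depends on how reads with several matching places were treated, on which the sources used here say nothing. Over each gene with 200 bp on either side, the share of 50-base words found once in the genome had a median of 84.7%. It had a median of 0% at the 12 SL1 genes, with a highest value of 29.4%, and SL1 genes in C. elegans lie in the repeated 5S rRNA gene cluster. In all, 19 genes were under 50% unique, among them all 12 SL1 genes and 5 of the 19 U2-letter genes, whose median was 62.3%. At the SL1 genes a lack of peaks cannot be told apart from a lack of callable reads. The same holds at the U2-letter genes F15H9.5 and F15H9.6, where the share was 0%. The 7 genes with a thresholded peak ran from 71.3% to 99.1%, and the 83 genes with no summit in any list from 0% to 100% with a median of 84.3%. For the 14 identical U6-box copies, the 3 with a thresholded peak had 71.3% to 87.2% and the 9 without a pooled summit 54.5% to 84.3%. The part of this uniqueness in the calls was not tested.

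**Figure D4:**
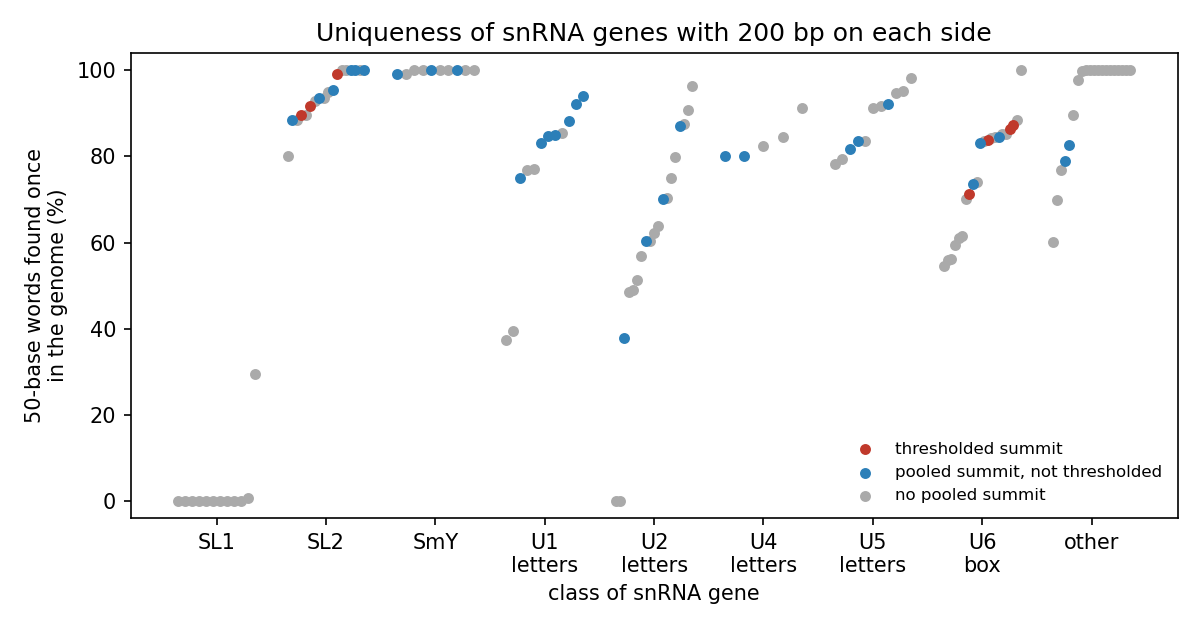
Share of 50-base words over each snRNA gene and 200 bp on either side that occur once in the genome (y axis, percent) by group, 1 point per gene, coloured by the kind of peak. The 12 SL1 genes lie at or below 29.4%, and the genes with a thresholded peak lie between 71.3% and 99.1% among SL2 and U6-box genes without one.

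The protein-coding genes of the same machinery were counted from lists of Sm and LSm, snRNP, spliced leader, SNAPc and assembly proteins. The lists held 58 genes, of which 54 were found. Of these 54 genes, 2 had a thresholded summit within 1000 bp of the 5′ end (3.70%, exact interval 0.452 to 12.7). The interval includes the 1.77% of all protein-coding genes. The 2 genes were snr-1, an Sm core protein gene, with a signal of 208 (rank 72) at 420 bp, and prp-8, the U5 snRNP scaffold of the spliceosome, with 83.4 (rank 462) at 338 bp. The snr-1 summit was nearer to the 5′ end of snx-13, at 191 bp. None of the 8 genes found of 10 listed for SNAPc, the complex that binds snRNA promoters, had one, and 4 of them had a pooled summit. Across the lists 37 of 54 genes had a pooled summit (68.5%, 54.4 to 80.5), against 47.8% of protein-coding genes counted by the same rule. Some of these summits lay nearer to the 5′ end of another coding gene. For lsm-3 the distance was 957 bp, against 78 bp to Y62E10A.23, and for lsm-1 802 bp, against 214 bp to rps-9. The summit counted for snr-4, another Sm core gene, at 407 bp was the one inside the U4-letter gene C52E4.8.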

How the data were processed

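Peak lists of anti-GFP ChIP-seq from 2 replicates were deposited in ce11 by the authors, per the deposited file listing: 1 relaxed list per replicate, 1 for both replicates pooled, and 1 thresholded by reproducibility. No aligner or caller is named in the sources used here. The deposited signal value of each peak was used only within its list, and the deposited −log10 q value for nothing. The lists in ce10 were not used.

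Summits, counted from 1, were compared with Ensembl release 115 genes; names of 129 of 129 members came from RefSeq by gene ID, since 44 share an Ensembl name. Ensembl and RefSeq name no U class, so letters in the gene were used in place of the planned product names, chosen after the files were seen. Intervals are exact Clopper-Pearson 95% intervals. With 1 group there was no test. Genes named are the 7 with a thresholded summit, the next 12 by pooled signal and the 2 highest of the U1, U2, U4, U5, U6, SL1 and SL2 groups; others were chosen after their values were seen. Members and lists were chosen with earlier results of these data known. Uniqueness was counted over 50-base words on both strands. The assignment of summits to genes was tested on simulated data. Python 3.11.15, numpy 2.4.6, pandas 2.3.3, SciPy 1.17.1 and matplotlib 3.10.9 were used. One gene sequence is not reported here.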

Additional observations from a re-analysis of the deposited data

How the results depend on the processing

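The 7 snRNA genes with a thresholded summit were the same 7 at distances of 50 and 100 bp, by the 5′ end alone, by overlap of the peak with the gene, with double the number of pooled peaks, without members near a tRNA, snoRNA or rRNA gene, and with each peak given to its nearest member. With summits inside the gene alone there were 2 (1 SL2 and 1 U6-box gene). The upper part of the thresholded list kept 4 genes, W05B2.8 as the only U6-box gene (1) and 3 SL2 genes. At 500 bp and 1000 bp the total was 9 and 10, with 5 and 6 SL2 genes. Those gained were sls-2.9, whose summit lay inside a tRNA gene, and sls-2.3, whose summits lay nearer to sls-2.2. At 1000 bp sls-2.15 was gained too, 898 bp from its summit. With identical sequences counted as 1, the U6-box genes came to 2, and by gene names alone to 0, since no name gives U6. With 1 replicate left out, the total was 5 to 7, SL2 genes 3 to 4 and U6-box genes 2 to 3: C28A5.7 and F54D8.7 were lost without replicate 1, and without replicate 2 R07E5.16 was lost and sls-2.9 gained. The other groups stayed at 0 in each of these settings except the counts of identical sequences and of gene names, where they were not counted again. The count from the pooled list ran from 26 to 46 over distances of 50 to 500 bp and was 62 at 1000 bp; either replicate list alone gave 31. The number of genes in the top peaks of both replicates was 3 to 6 with the number of peaks changed. The median position of the pooled summits, 29 bp, was 35 bp without replicate 2 and -27 bp without replicate 1. The cause of these shifts was not tested. The pooled signal of all 20 genes named by the rule was the same with the nearest peak. No paired analysis was possible because there was 1 group. Unknown depth and the peak width of 380 bp limit the counts and positions.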
